A study of Homo sapiens with 6 samples.

Results

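Glycolysis and the response to low oxygen share many genes in cancer cells, and 42 of them were followed in MDA-MB-231 cells depleted of Sam68. The 42 genes were chosen by symbol: 24 act in glucose uptake, glycolysis, its regulation or the fate of pyruvate, and 18 encode the hypoxia-inducible factors (HIFs), the proteins that degrade them, or products of HIF target genes. Each of the 42 symbols was found at 1 locus among the 74852 loci of the deposited table, and all 42 passed the minimum mean of 10 normalized reads used for testing.

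MDA-MB-231 is an established human line of triple-negative breast cancer. By the labels, its cells were transfected in 2 rounds with either non-targeting control siRNA (si-CTRL, 3 libraries) or siRNA directed at SAM68 (si-SAM68, 3 libraries) and were collected 24 h after the second round, whereas the methods of the study describe pools of siRNA and a harvest at 48 h. Both groups are the same parental line, with no engineered allele named, and both received the same transfection reagent. The medium also differs between these sources, high-glucose DMEM in the labels and RPMI in the methods, so the glucose supply of the cells is not settled. Nothing in the labels says that the replicates were separate cultures, so the p-values measure the spread between these libraries, which may be technical.

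The silencing agent was a pool of 4 siRNAs of 19 bases, shown because they define the treated group. Each siRNA matched transcripts of KHDRBS1, the gene encoding Sam68, in GENCODE (the last of them 3 of 4 transcripts, the others 4 of 4), and 0 of the 42 genes had an exact match to any of the 4 on either strand.
siSAM68_1: gcacccauauggacguuau
siSAM68_2: gaaagagcgagugcugaua
siSAM68_3: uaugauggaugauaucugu
siSAM68_4: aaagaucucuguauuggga

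Glycolysis converts glucose into pyruvate through a chain of cytosolic enzymes, several of which exist as isoenzymes encoded by separate genes, and many tumor cells turn the pyruvate into lactate even when oxygen is present. When oxygen is plentiful, prolyl hydroxylases of the EGLN family mark the HIF alpha subunits, and the VHL ubiquitin ligase then destroys them. When oxygen is scarce the alpha subunits persist, pair with ARNT and switch on genes of glucose uptake, glycolysis, angiogenesis, pH control and collagen modification. HIF activity is set mainly by protein stability, which RNA-seq does not measure.

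HIFs bind the core sequence ACGTG or GCGTG. RefSeq promoter windows (build GRCh38.p14, 250 bases before to 50 bases after a start site) were given for 37 of the 42 genes, in 68 windows. A match to ACGTG or GCGTG on either strand was present in 67.6% of these windows and in 48.4% of all 35116 promoter windows. The median GC content was 68% in the windows of the 42 genes and 58.7% in all windows, and a palindromic CACGTG counts once on each strand. By gene, 33 of the 37 had at least 1 match in a window (89.2%), against 52.4% of all 27305 genes with a window, and genes with several start sites have more windows to match in. The stretches below come from the window with the most matches and show the match nearest to the start site, with matching bases in capitals. They set genes that changed after Sam68 depletion (the first 5) beside HIF target genes that did not pass the test (the last 3). NDRG1 and VEGFA also changed but are missing here because no window was given for them.
HK1, chr10:69318184-69318212, plus strand: gattaggcggggCACGCcggggagaggtg
PFKFB3, chr10:6202813-6202841, plus strand: accctcctcccCACGTGgaagggggctgg
ALDOC, chr17:28576907-28576935, minus strand: ccccggaggagtCACGTagctctgcgaca
BHLHE40, chr3:4979276-4979304, plus strand: cacagggtagaaCACGTagctccaaccca
P4HA1, chr10:73096936-73096964, minus strand: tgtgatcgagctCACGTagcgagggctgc
LDHA, chr11:18394584-18394612, plus strand: attccggatctcattgcCACGCgcccccg
PGK1, chrX:78104264-78104292, plus strand: gcctccggagcgCACGTcggcagtcggct
CA9, chr9:35673898-35673926, plus strand: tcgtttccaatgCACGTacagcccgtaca
All 8 were picked from the 33 genes with a match, so its presence in them is no result. The 4 genes with a window and no match were ARNT, EGLN3, P4HA2 and PGAM1, of which 0 passed the test. With 16.7% of the 42 genes and 10.7% of all loci called, 4 genes are too few to compare. ALDOC held 5 matches in its window, BHLHE40 4 and P4HA1 1, and LDHA held 6. Of the 7 windows of HK1, 2 held a match and were tied, and the one at the lower position was shown. A match is a description of the letters and not evidence of binding.

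The libraries held between 52625492 and 82568487 reads on all loci. Replicate 2 of si-SAM68 stood apart in that 15.1% of its reads fell on an rRNA precursor locus, against 1.83% to 3.17% elsewhere. The glycolytic enzyme loci took 1.18% of all reads in that library and between 1.33% and 1.45% in the others; with the rRNA locus left out of the total, the share was 1.40% there and between 1.37% and 1.48% in the others. In si-CTRL replicate 1 the value lay farthest from the median of its group for 31 of the 42 genes (73.8%), and for 54.9% of all loci tested. The line's own markers VIM, CD44, AXL, KRT8 and KRT18 were present in every library, with a summed normalized read count between 281117 and 334518. Of the markers that should be low in this line, CDH1, EPCAM, PTPRC, CD3E, CD14 and DCN stayed at or below 13.6 in any library, and ESR1, PECAM1, CDH5 and COL3A1 reached 15.2, 16.2, 42.5 and 48.4. PGR and KDR were at 0 in every library. The summed level of the endothelial markers moved with the groups, from 34.2 to 58.7 in si-CTRL and from 20.1 to 22.2 in si-SAM68 libraries. COL1A1, a fibroblast marker, was high in both groups, at 138281 to 181387. ERBB2 and PDGFRA lie at loci that also carry MIR4728 and FIP1L1, with 2413 to 3447 and 4089 to 5779 normalized reads. The part of these values in the results below was not tested.

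KHDRBS1 checked the labels. Its normalized read count was 15660, 14483 and 14737 in the si-CTRL libraries and 583, 602 and 670.2 in the si-SAM68 libraries, a mean of 4.13% of that in control cells. The groups were far apart, with a log2 fold change of -4.60 (SE 0.083, adjusted p = 2.13e-09, limma).

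Of the 42 genes, 7 differed between si-SAM68 and si-CTRL cells at an adjusted p under 0.05. HK1, ALDOC, PFKFB3, VEGFA, NDRG1 and BHLHE40 fell, and P4HA1 rose. The share was 16.7%, against 10.7% of all 18849 loci tested and 12.6% of the 7991 loci whose mean reached 1000, as it did for 33 of the 42 genes. By direction, 1 gene rose and 6 fell, whereas 4.47% of all loci tested rose and 6.23% fell. By the thresholds of the study (a fold of 1.5 or more with an unadjusted p no higher than 0.05), 4 genes were called, HK1, PFKFB3, NDRG1 and CA12, all lower. Of all loci, 7.67% were called (2.83% higher and 4.83% lower). The thresholds were applied to the limma fit, which is not the study's own analysis, and passed 1445 loci. The study itself reported a smaller number of regulated genes at these thresholds. These calls were not compared with the study's list of regulated genes. The groups did not overlap for 19 of the 42 genes (45.2%), 7 with si-SAM68 above and 12 with si-SAM68 below, against 33.9% of all loci (16.6% above and 17.3% below). The median log2 fold change of the 42 genes was -0.07, and that of all loci was 0.01. An unadjusted p under 0.05 was found for 16 of the 42 genes, and for 27.0% of all loci. This fit ignored the replicate numbers. With them as a block, 6 of the 42 genes and 1697 loci had an adjusted p under 0.05.

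**Figure D1:**
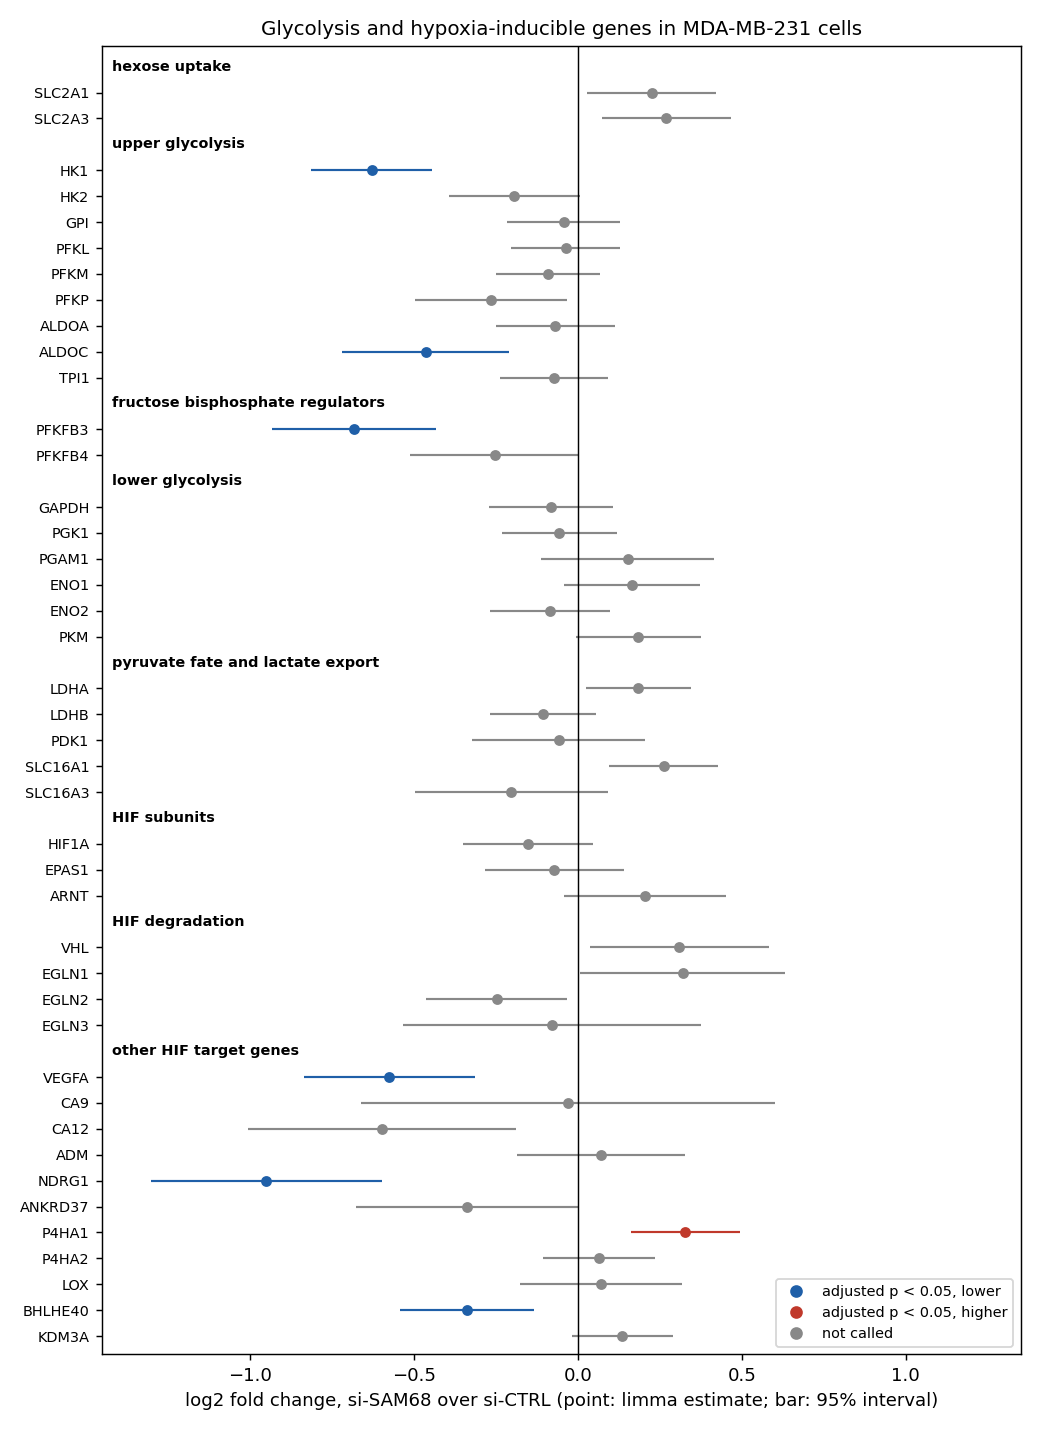
Log2 fold change of each of the 42 genes, si-SAM68 over si-CTRL (x axis), grouped by role; points are limma estimates and bars their 95% intervals, blue for genes that fell and red for genes that rose at an adjusted p under 0.05. The 6 blue points lie between -0.95 and -0.34, the red point (P4HA1) lies at 0.33, and most grey intervals cross 0.

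At the entry of glucose, neither transporter passed the test with limma. SLC2A1, which encodes the widely expressed transporter GLUT1, had normalized read counts of 8960, 8369 and 8209.9 in the si-CTRL libraries and of 10989.9, 10003 and 8954 in the si-SAM68 libraries. The lowest si-SAM68 library lay just under the highest si-CTRL library, so the groups overlapped. The log2 fold change was 0.23 (SE 0.089, adjusted p = 0.136, limma). SLC2A3, which encodes the high-affinity transporter GLUT3, had a mean of 3063 ± 303.6 (SD, n = 3) in si-CTRL and of 3683 ± 51.6 in si-SAM68 cells. Its groups did not overlap, and its log2 fold change was 0.27 with an adjusted p of 0.0801 (limma) and of 0.0452 with DESeq2 on the recovered reads.

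In the upper part of glycolysis, the largest change was in HK1, which encodes the hexokinase that traps glucose as glucose 6-phosphate in most tissues (chromosome 10 of hg19, 71029756 to 71161638). Its normalized read counts were 40109.6, 34019 and 34489.9 in si-CTRL libraries and 22546, 23977 and 23565 in si-SAM68 libraries. Every si-SAM68 library lay far below every si-CTRL library. The mean fell to 64.5% of that in si-CTRL cells (log2 fold change -0.63, SE 0.083, adjusted p = 0.0021, limma). ALDOC, a brain-enriched aldolase that splits fructose 1,6-bisphosphate (chromosome 17, 26900134 to 26904191), had normalized read counts of 906, 909 and 932 in si-CTRL and of 784, 619 and 603 in si-SAM68 libraries. The si-CTRL libraries were close to each other and the si-SAM68 libraries were spread below them. Its log2 fold change was -0.46 (SE 0.114, adjusted p = 0.0317, limma).

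The other 7 genes of upper glycolysis did not pass the test, and their log2 fold changes ranged from -0.26 for PFKP to -0.04 for PFKL. HK2, the hexokinase often induced in tumors, had a mean of 5848 ± 367.3 (SD, n = 3) in si-CTRL and of 5123 ± 450.8 in si-SAM68 cells, with groups that did not overlap and a 95% interval of the log2 fold change from -0.39 to 0.01. PFKP, the platelet-type phosphofructokinase, had a log2 fold change of -0.26 (adjusted p = 0.136, limma), with an interval from -0.50 to -0.03 and groups that did not overlap. For PFKM and PFKL, which encode the muscle and liver types of the same enzyme, the intervals ran from -0.25 to 0.07 and from -0.20 to 0.13. GPI, ALDOA and TPI1, which encode the isomerases and the main aldolase of the pathway, had log2 fold changes of -0.04, -0.07 and -0.07.

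PFKFB3 and PFKFB4 make and degrade fructose 2,6-bisphosphate, which activates phosphofructokinase. PFKFB3 (chromosome 10, 6186841 to 6277508) had normalized read counts of 2128, 1626 and 1693 in si-CTRL libraries and of 1082, 1198 and 1095 in si-SAM68 libraries. The highest si-SAM68 library was well under the lowest si-CTRL library. The mean fell to 61.9% of that in si-CTRL cells (log2 fold change -0.68, SE 0.112, adjusted p = 0.00619, limma). PFKFB4, at a lower level of 345 ± 26.3 against 289 ± 15.5 (SD, n = 3), did not pass the test (log2 fold change -0.25, adjusted p = 0.192, limma), although its groups did not overlap. Its locus also carries the microRNA gene MIR6823.

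None of the 6 genes of lower glycolysis passed the test, and 0 of them had an unadjusted p under 0.05, against 27.0% of all loci. GAPDH, which encodes the NADH-producing enzyme of the pathway and is widely used as a reference gene, had normalized read counts of 285023, 275042 and 262667 in si-CTRL libraries and of 276435, 252134 and 248891 in si-SAM68 libraries. The groups overlapped, with a log2 fold change of -0.08 (SE 0.085, adjusted p = 0.573, limma) and a 95% interval from -0.27 to 0.11. The annotated GAPDH locus of the table spans 206375 bases, and its exons in GENCODE 2224. PKM, which encodes the pyruvate kinase expressed in most tumors, had a mean of 291689 ± 20265 in si-CTRL and of 331044 ± 5344 (SD, n = 3) in si-SAM68 cells. All si-SAM68 libraries lay above the si-CTRL libraries (log2 fold change 0.18, adjusted p = 0.199, limma). PGK1, PGAM1, ENO1 and ENO2 had overlapping groups, with log2 fold changes of -0.06, 0.15, 0.17 and -0.08.

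At the end of the pathway pyruvate is reduced to lactate or enters mitochondria. LDHA, which encodes the lactate dehydrogenase subunit typical of tumors, had normalized read counts of 74176, 72149.5 and 71393 in si-CTRL libraries and of 81772, 80036 and 85713 in si-SAM68 libraries. The groups did not overlap, and the log2 fold change was 0.18 (SE 0.072, adjusted p = 0.133, limma). LDHB, the other main subunit, had a log2 fold change of -0.11 with overlapping groups. SLC16A1, which encodes the lactate transporter MCT1, had normalized read counts of 10727, 9706 and 10429 in si-CTRL libraries and of 11721, 12532 and 12751 in si-SAM68 libraries, without overlap. Its log2 fold change of 0.26 lay just outside the threshold (SE 0.075, adjusted p = 0.0519, limma), and the adjusted p was 0.0186 with DESeq2. The exporter gene SLC16A3 (MCT4) and PDK1, whose kinase keeps pyruvate out of mitochondria, had overlapping groups and log2 fold changes of -0.20 and -0.06.

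**Figure D2:**
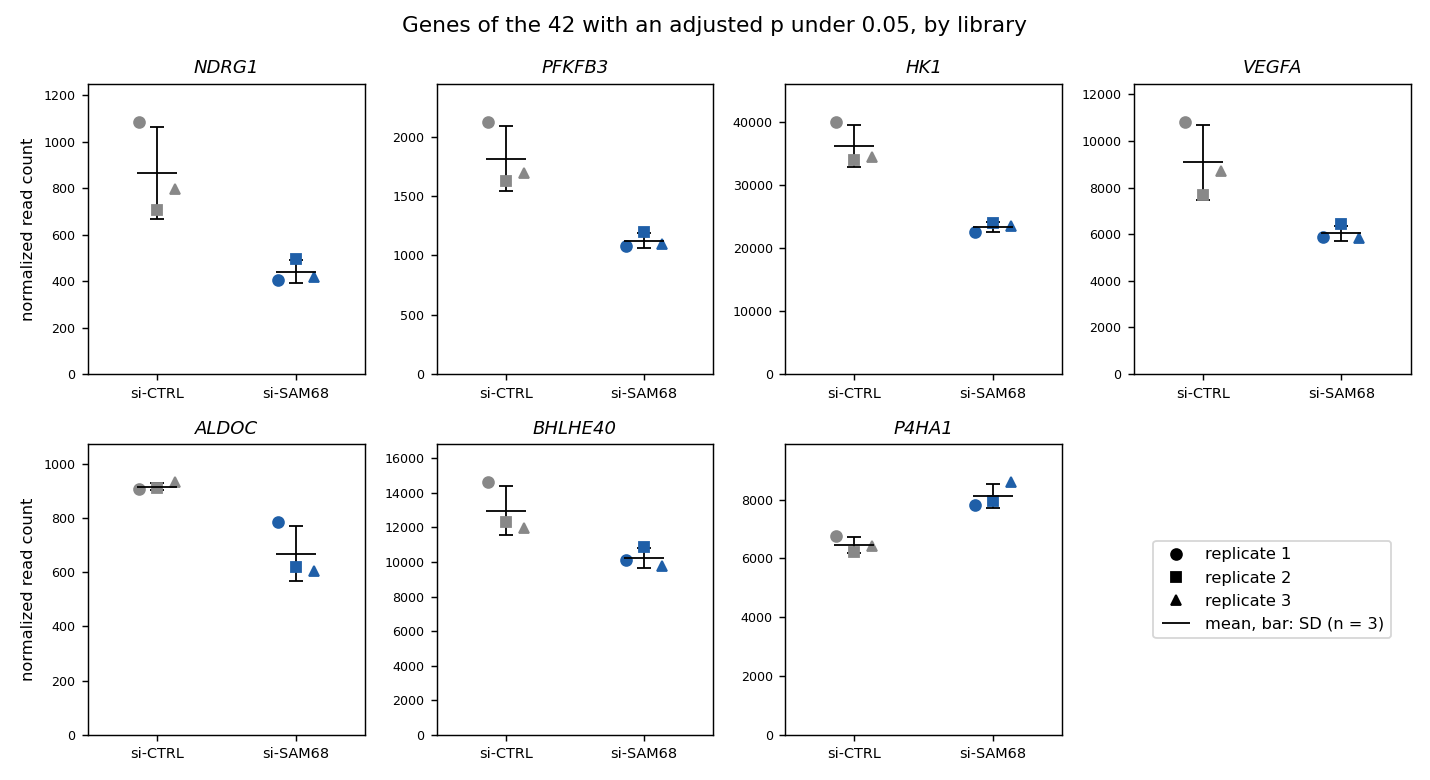
Normalized read count (y axis, from 0) of the 7 genes with an adjusted p under 0.05 in each library; marker shape gives the replicate number, the horizontal bar the mean and the error bar the SD (n = 3). In each panel the si-CTRL (grey) and si-SAM68 (blue) libraries do not overlap, and si-CTRL replicate 1 is the highest library for NDRG1, PFKFB3, HK1, VEGFA and BHLHE40.

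Levels of different genes were compared per length, as normalized reads per kilobase of exon (union of the exons in GENCODE). In si-CTRL cells GAPDH (123311 ± 5036, SD, n = 3) and PKM (88070.3 ± 6119) were highest among the 24 glycolysis genes. PGAM1 (33598 ± 5745), ENO1 (29412 ± 3058.5), LDHB (26751 ± 1386), LDHA (24443.5 ± 485) and TPI1 (24230.2 ± 511) followed. In this order PGAM1 overlapped with ENO1, ENO1 with LDHB and LDHA with TPI1 between libraries, whereas LDHB and LDHA did not overlap. The order depends on the exon unions, which come from another annotation than the counted loci. LDHB was divided by 1586 bases and LDHA by 2969. Before this division LDHA was higher, with a si-CTRL mean of 72573 normalized reads against 42427 for LDHB. ALDOA (10842 ± 627) came next, above PGK1 (7992 ± 588) and HK1 (7755 ± 726), which overlapped. At the other end were PFKFB4 (96.1 ± 7.34) and PDK1 (38.1 ± 4.61). PDK1 was divided by a union of 14253 bases and PFKFB4 by one of 3586. Before this division PDK1 was higher, at 544 ± 65.7 normalized reads against 345 ± 26.3 for PFKFB4. Among the hexokinase genes HK1 was higher per length than HK2, which had 984 ± 61.8. GENCODE lists pseudogenes named for 15 of the 42 genes, 62 of them for GAPDH and 13 for PGAM1, and reads could be split among such copies.

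**Figure D3:**
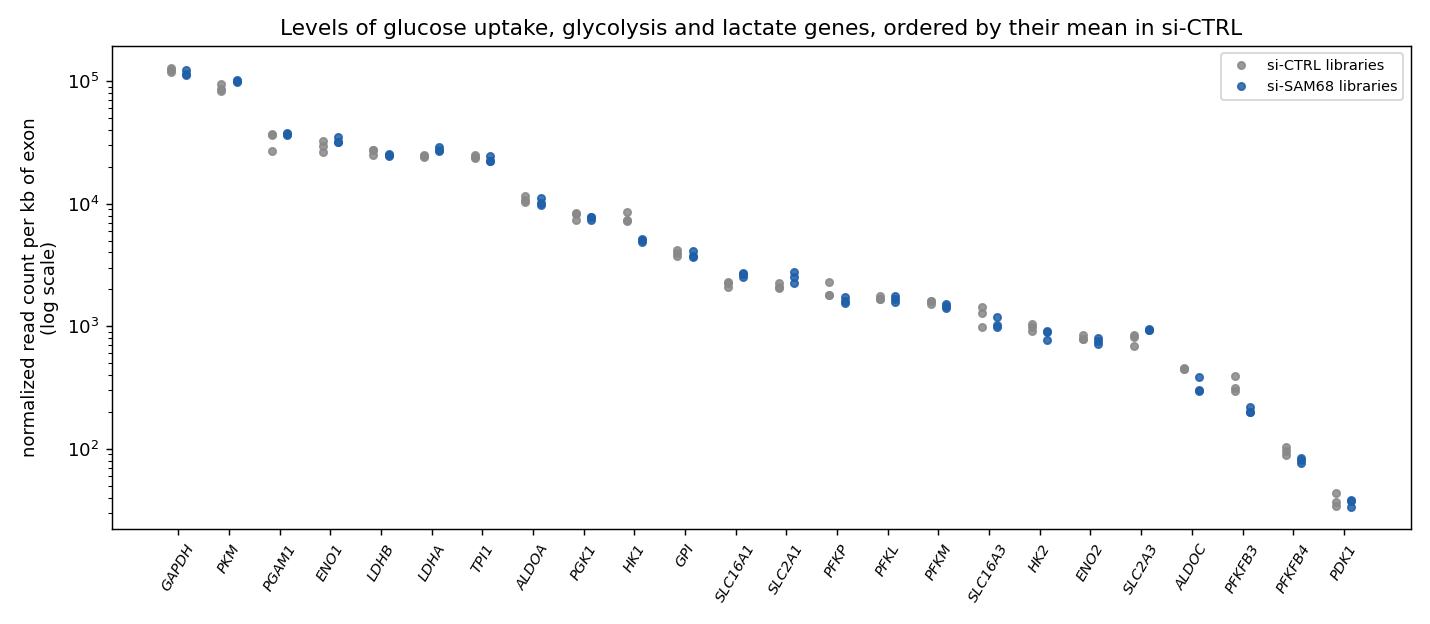
Normalized read count per kilobase of exon (y axis, log scale) of the 24 glycolysis genes in the 3 si-CTRL (grey) and 3 si-SAM68 (blue) libraries, ordered by the si-CTRL mean. The genes range from 123311 for GAPDH to 38.1 for PDK1 in si-CTRL cells, and HK1 is the highest of those in which every si-SAM68 library lies below every si-CTRL library.

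The relative use of isoenzymes was compared within each library for 14 pairs of paralogs, where the log2 ratio does not depend on library size. With 3 libraries against 3 and the replicate numbers ignored, the smallest p of the two-sided exact permutation test is 0.1. No pair could therefore pass a threshold of 0.05, and the smallest value after adjustment over the 14 pairs was 0.175. The read ratio of HK2 to HK1 was 0.155, 0.161 and 0.170 in si-CTRL libraries and 0.204, 0.225 and 0.228 in si-SAM68 libraries, a difference of 0.44 on the log2 scale (exact permutation test, p = 0.1). HK2 accounted for 13.9% of the reads of the pair in si-CTRL and for 18.0% in si-SAM68 cells. HK2 itself did not rise, with a mean of 5848 in si-CTRL and of 5123 in si-SAM68 cells, and its larger share goes with the greater fall of HK1. The ratio of LDHB to LDHA was 0.538, 0.606 and 0.612 in si-CTRL libraries and 0.484, 0.482 and 0.467 in si-SAM68 libraries (difference -0.29, exact permutation test, p = 0.1). For ALDOC to ALDOA the log2 difference was -0.39, for ENO2 to ENO1 it was -0.25, and for PFKFB4 to PFKFB3 it was 0.43, each without overlap between the groups. The read ratio of EGLN2 to EGLN1 went from between 1.25 and 1.48 in si-CTRL libraries to between 0.753 and 1.07 in si-SAM68 libraries (log2 difference -0.57). The EGLN2 locus also joins MIA and RAB4B, so this ratio is not of EGLN2 reads alone. The ratio of P4HA2 to P4HA1 moved from between 1.33 and 1.39 to between 1.03 and 1.21 (log2 difference -0.26). PFKL to PFKP also did not overlap (0.23), whereas the other 6 pairs did, among them SLC2A3 to SLC2A1 (0.04) and EPAS1 to HIF1A (0.08). HK1, ALDOC, PFKFB3 and P4HA1 had passed the test as single genes, so the ratios that hold them are not separate results. The share of ratios without overlap among other pairs of genes was not computed.

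**Figure D4:**
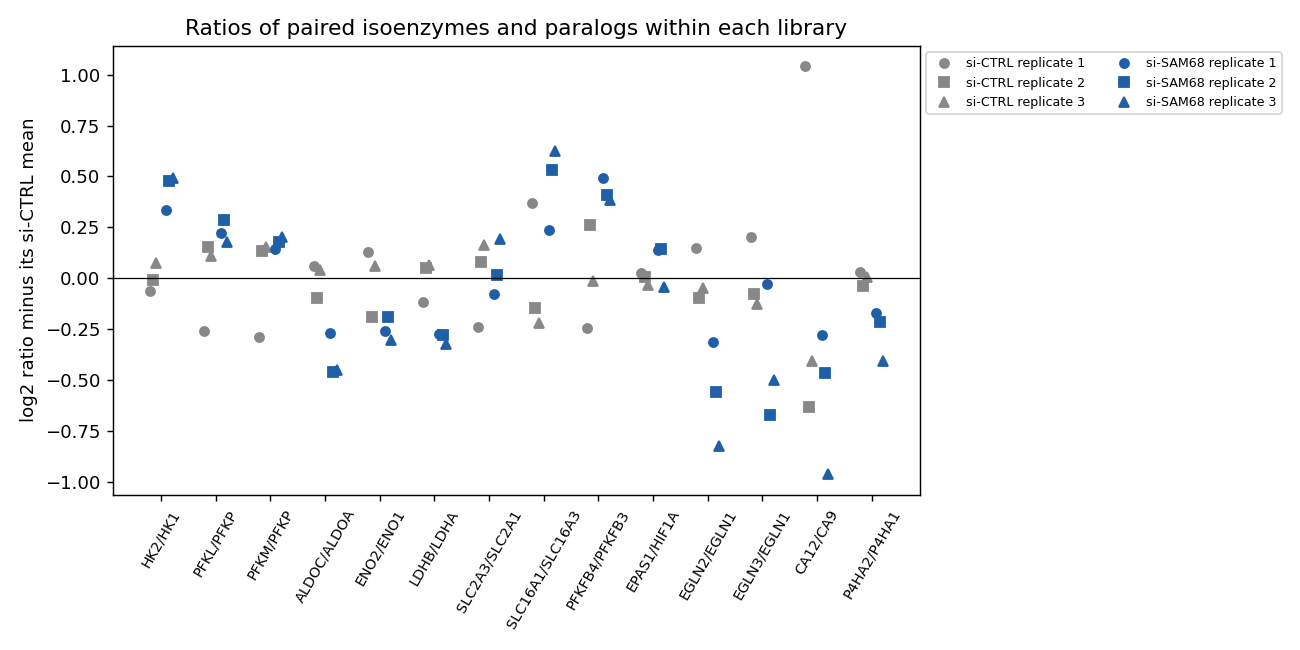
Log2 ratio of the normalized read counts of 14 pairs of paralogs in each library, minus the mean of that ratio in si-CTRL (y axis); grey is si-CTRL, blue si-SAM68, and marker shape the replicate. HK2/HK1 and PFKFB4/PFKFB3 lie above, and ALDOC/ALDOA, LDHB/LDHA and EGLN2/EGLN1 below, all si-CTRL libraries, while CA12/CA9 spreads widely, with si-CTRL replicate 1 highest. The EGLN2 locus also joins MIA and RAB4B.

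Among the HIF subunits, HIF1A, which encodes the alpha subunit of HIF-1, had normalized read counts of 63442, 53381 and 52917 in si-CTRL libraries and of 48567, 51078 and 52722 in si-SAM68 libraries. The highest si-SAM68 library lay just under the lowest si-CTRL library, and the log2 fold change was -0.15 (SE 0.089, adjusted p = 0.306, limma; 95% interval -0.35 to 0.05). EPAS1, which encodes HIF-2 alpha, and ARNT, the shared beta subunit, had log2 fold changes of -0.07 and 0.21 with overlapping groups.

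The 4 genes of HIF degradation did not pass the test either. An unadjusted p under 0.05 (limma) was found for 3 of them, in both directions, and for 27.0% of all loci. The 4 genes are too few to compare with that share. VHL, the substrate-binding subunit of the ligase, had normalized read counts of 15313, 21279 and 20757 in si-CTRL libraries and of 22415, 22697 and 25344 in si-SAM68 libraries. Its groups did not overlap, and si-CTRL replicate 1 stood below the other libraries (log2 fold change 0.31, SE 0.122, adjusted p = 0.137, limma). EGLN1 (PHD2), the main oxygen-sensing hydroxylase, had a log2 fold change of 0.32 and EGLN2 (PHD1) one of -0.25, both with overlapping groups (adjusted p = 0.176 and 0.135, limma). The EGLN2 locus also joins MIA and RAB4B, so its reads are not of EGLN2 alone. EGLN3, at a low level of 68.5 ± 6.04 against 65.4 ± 11.8 (SD, n = 3), had an interval from -0.53 to 0.37.

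Products of HIF target genes moved in both directions. NDRG1, a stress-induced gene linked to metastasis suppression (chromosome 8, 134249414 to 134309829), had normalized read counts of 1087, 707 and 799 in si-CTRL libraries and of 407, 497 and 420.02 in si-SAM68 libraries. All si-SAM68 libraries lay below the si-CTRL libraries, and the mean fell to 51.1% (log2 fold change -0.95, SE 0.158, adjusted p = 0.00638, limma). VEGFA, the main angiogenic growth factor (chromosome 6, 43737946 to 43754221), had normalized read counts of 10834, 7691 and 8705 in si-CTRL libraries and of 5868, 6421 and 5829.96 in si-SAM68 libraries. The groups did not overlap and si-CTRL replicate 1 was highest, with a mean of 66.5% of that in si-CTRL cells (log2 fold change -0.57, SE 0.117, adjusted p = 0.0148, limma). BHLHE40, a transcriptional repressor of the clock and of differentiation (chromosome 3, 5021097 to 5026863), had normalized read counts of 14612, 12329.5 and 11974 in si-CTRL and of 10099, 10861 and 9764 in si-SAM68 libraries, without overlap. The log2 fold change was -0.34 (SE 0.091, adjusted p = 0.0436, limma), and with the replicate number as a block the adjusted p was 0.0552.

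P4HA1 was the only one of the 42 genes that rose past the threshold. It encodes a catalytic subunit of collagen prolyl 4-hydroxylase (chromosome 10, 74766982 to 74856732). Its normalized read counts were 6750.4, 6222 and 6428 in si-CTRL libraries and 7828, 7951.5 and 8592 in si-SAM68 libraries, a mean of 125.6% of that in si-CTRL cells. The groups did not overlap (log2 fold change 0.33, SE 0.074, adjusted p = 0.0226, limma). P4HA2, the paralogous subunit, had a log2 fold change of 0.06 with overlapping groups, and LOX, which crosslinks collagen, one of 0.07.

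The carbonic anhydrases on the cell surface did not pass the adjusted test. CA9, a widely used hypoxia marker, was low, with normalized read counts of 55.0, 116.2 and 112.2 in si-CTRL libraries and of 80.6, 79.1 and 106 in si-SAM68 libraries. The groups overlapped, and the 95% interval of the log2 fold change ran from -0.66 to 0.60 (adjusted p = 0.964, limma). Changes of either sign within that interval were not excluded at this depth and spread. CA12 had normalized read counts of 224, 146 and 165 in si-CTRL libraries and of 129.96, 112 and 106 in si-SAM68 libraries. Its groups did not overlap and its log2 fold change was -0.60 (SE 0.183, adjusted p = 0.0656, limma), which is past the thresholds of the study but not past the adjusted one. It lost the former with a pseudocount of 5, under quantile normalization and without si-CTRL replicate 1, si-SAM68 replicate 2 or si-SAM68 replicate 3. It passed the adjusted threshold without si-CTRL replicate 2 (adjusted p = 0.0454, limma) and with DESeq2 on the recovered reads (adjusted p = 0.0333). ANKRD37, a small HIF target gene, had a log2 fold change of -0.34 (adjusted p = 0.191, limma) without overlap, and KDM3A, a histone demethylase gene, had one of 0.14 (adjusted p = 0.238, limma), also without overlap. ADM, which encodes the vasodilator peptide adrenomedullin, had a log2 fold change of 0.07 with overlapping groups.

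The 7 calls did not rest equally on the libraries. With each of the 6 libraries left out in turn, HK1, PFKFB3 and NDRG1 kept an adjusted p under 0.05 in all 6 fits (largest value 0.0472, for NDRG1, limma). VEGFA kept it in 4 of 6 and lost it without si-SAM68 replicate 1 or replicate 3 (largest adjusted p = 0.0829, limma). ALDOC kept it in 2 of 6, without si-CTRL replicate 1 or without si-SAM68 replicate 1, and P4HA1 and BHLHE40 each kept it in 1 of 6, without si-CTRL replicate 1 (largest adjusted p = 0.137, 0.104 and 0.170, limma). Without si-CTRL replicate 1, 12 of the 42 genes were called, the 7 and ARNT, EGLN2, PKM, SLC16A1 and SLC16A3, with 2839 loci called in all. By the thresholds of the study, only NDRG1 of the 42 genes was called without that library.

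Beyond the 42 genes, 127 further symbols of the same pathways were listed, older names included, of which 120 were found and 105 tested. Of these 105, 18 had an adjusted p under 0.05, 5 higher and 13 lower in si-SAM68 cells (17.1%, against 10.7% of all loci), and the median log2 fold change was -0.0049.

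Of 27 other genes of glycolysis and pyruvate use, 2 rose and 2 fell (14.8% called, against 10.7% of all loci). HKDC1, a hexokinase-like gene next to HK1 on chromosome 10 (70980059 to 71027314), fell from 593 ± 61.3 to 325 ± 43.9 (SD, n = 3; log2 fold change -0.87, SE 0.132, adjusted p = 0.00418, limma). PCK2, the mitochondrial enzyme that makes phosphoenolpyruvate, fell by 0.42 on the log2 scale. SLC2A12, a glucose transporter gene, rose from 194 ± 9.07 to 353 ± 15.6 (log2 fold change 0.86, SE 0.115, adjusted p = 0.00216, limma), and SLC16A7, which encodes the monocarboxylate transporter MCT2, rose by 0.54 on the log2 scale (adjusted p = 0.00941, limma). Of 16 genes of the pentose phosphate pathway and glycogen metabolism, 18.75% were called, against 10.7% of all loci. RPIA and PGLS of the pentose phosphate pathway fell (log2 fold changes -0.61 and -0.42). In RPIA the normalized read counts were 889.9, 1356 and 1358 in si-CTRL libraries and 779.7, 725 and 809.9 in si-SAM68 libraries, so that si-CTRL replicate 1 lay nearest to the si-SAM68 libraries.

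Of 45 other hypoxia-inducible genes tested, 7 fell and 2 rose (20% called, against 10.7% of all loci). The median log2 fold change over the list was -0.00428. STC1, which encodes the secreted glycoprotein stanniocalcin (chromosome 8, 23699434 to 23712320), had normalized read counts of 4861, 2567 and 4076 in si-CTRL libraries and of 740.5, 1202 and 1117 in si-SAM68 libraries. The si-CTRL libraries differed among themselves, but each lay above every si-SAM68 library (log2 fold change -1.89, SE 0.235, adjusted p = 0.0015, limma). RORA, VLDLR, FLT1, MAFF and ZNF395 fell by 0.84, 0.78, 0.64, 0.59 and 0.50 on the log2 scale, ZNF395 at a locus that joins FBXO16. ERO1A and GPRC5A rose (0.32 and 0.38), and the seventh that fell was HMOX1 (-0.50), which with ERO1A lost its call under the replicate block (adjusted p = 0.0506 and 0.0667, limma). FLT1 encodes a receptor of VEGFA, and VLDLR a lipoprotein receptor. Typical HIF target genes outside the 42, picked for naming after their values were seen, did not pass the test: BNIP3 and HILPDA had log2 fold changes of -0.05 and -0.09, PLOD2 one of 0.13 and DDIT4 one of 0.44 (adjusted p = 0.115 for DDIT4, limma). Of 17 other genes of oxygen sensing and of the HIF machinery, 2 fell and 0 rose. The share of 11.8% is near the 10.7% of all loci. The genes were ARNT2, a paralog of ARNT at a locus joined with MIR5572, and HSP90AA1, the inducible HSP90 chaperone (log2 fold changes -0.41 and -0.32). Left out in turn, no library took away the calls of STC1, HKDC1, SLC2A12 or VLDLR, whereas RPIA, HMOX1, ARNT2 and HSP90AA1 kept theirs in 1 of 6 fits and PCK2, SLC16A7, PGLS, ERO1A, GPRC5A, RORA, FLT1, MAFF and ZNF395 in 2 to 5 of 6. With the replicate number as a block, the adjusted p of HSP90AA1 was 0.0694 (limma).

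**Figure D5:**
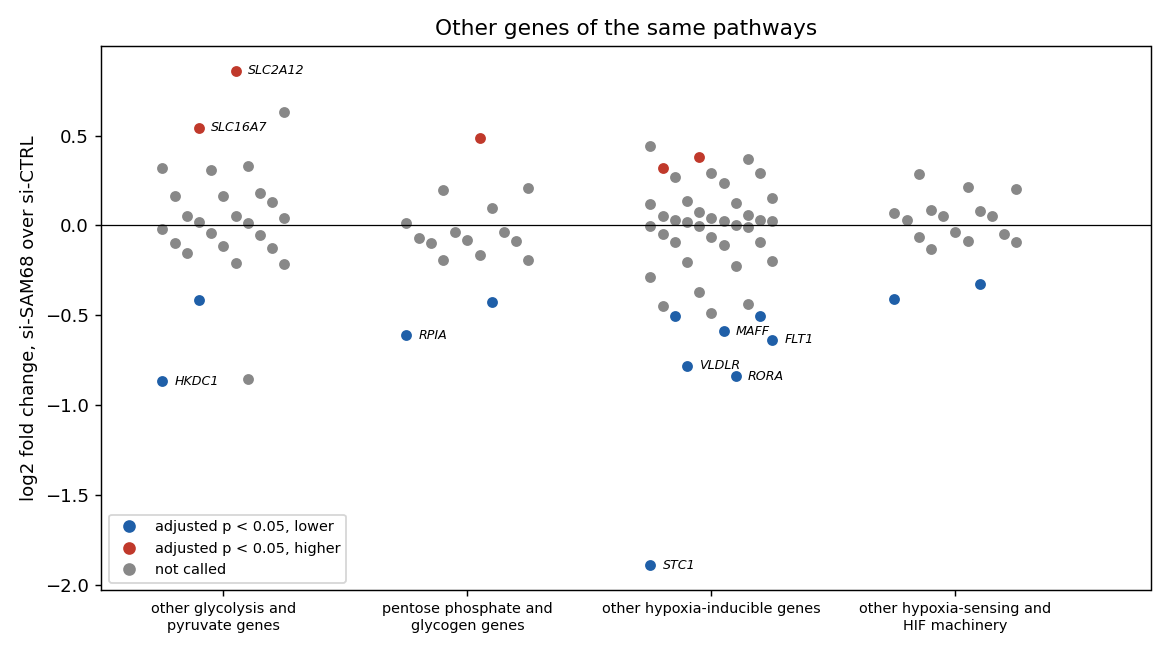
Log2 fold change, si-SAM68 over si-CTRL (y axis), of the 105 tested genes outside the 42 in 4 lists (x axis; the position within a list has no meaning); blue points fell and red points rose at an adjusted p under 0.05, grey points did not pass. STC1 at -1.89 is the lowest point and SLC2A12 at 0.86 the highest.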

How the data were processed

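Libraries of polyadenylated RNA were counted by the authors on FAST DB loci (v2016_1, hg19). The deposited values are a signal, each being a count of reads scaled by the library's DESeq2 size factor. The submitters' processing notes name STAR 2.4.0, SAMtools, Picard, FastQC and DESeq2; the counting program and the use of strand are not given in the sources used here. Every value was a whole multiple of its library's smallest value (100% within 0.02 reads), so reads were recovered.

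Genes were matched on the symbol column, split where a locus joins several. limma 3.58.1 in R 4.3.3 (lmFit, eBayes with a trend) was run on log2(normalized read count + 1) over 18849 loci whose mean reached 10, with Benjamini-Hochberg adjustment over all of them; this scale understates fold changes of low genes. The 42 genes, the lists and the rule for named genes (full values for genes with an adjusted p under 0.05 and no overlap, and for HIF1A, VEGFA, CA9, SLC2A1, LDHA and GAPDH; in other lists at most 6 genes) were chosen with earlier results of these data known. Alternatives were other pseudocounts, filters, scalings and eBayes settings, a replicate block, each library left out, and edgeR 4.0.16 and DESeq2 1.42.0 on the recovered reads. Deviations from the group means correlated at 0.105, 0.231 and 0.125 between libraries of the same number. Between others the correlation was at most 0.00687, so the numbers were taken to pair the libraries. The main limma fit, its SEs and intervals, and the exact permutation test did not use this pairing. The replicate block was the only fit that did. Scripts were tested on simulated counts. Intervals cover the spread between 3 libraries per group. The values of 1 other pathway gene, which the counts include, and of 1 marker are not reported here.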

Additional observations from a re-analysis of the deposited data

How the results depend on the processing

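Of the 42 genes, 7 were called at an adjusted p under 0.05. The same 7 were called with pseudocounts of 0.1 and 5, TMM scaling, quantile normalization, a robust trend and edgeR, 6 of them with no filter on low values, and all 7 among 8 with a minimum mean of 50 and among 10 with DESeq2, which added CA12, SLC16A1 and SLC2A3. Without a trend in eBayes the number was 3 (HK1, NDRG1 and PFKFB3), and among all loci 899 in place of 2017, and 8 in place of 18 other pathway genes. With the replicate number as a block, 6 of the 42 genes were called, 16 other pathway genes and 1697 loci in all. BHLHE40 lost its call with the block, as did ERO1A, HMOX1 and HSP90AA1 among the other pathway genes (adjusted p = 0.0667, 0.0506 and 0.0694, limma); PDP1 gained one, and the block changed no other call among these genes. With no filter, 2240 loci passed the thresholds of the study in place of 1445. Leaving out each library in turn gave between 3 and 12 of the 42 genes at an adjusted p under 0.05, between 1 and 5 by the thresholds of the study, between 5 and 23 other pathway genes, and between 625 and 2839 loci in all; the highest of the first count and of the last 2 were without si-CTRL replicate 1, and the lowest of these 3 without si-SAM68 replicate 3. The cause was not tested.

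Directions changed in genes that were not called. With a library left out, the log2 fold change ran from -0.0758 to 0.00107 for PFKL, from -0.13 to 0.0355 for PDK1, from -0.13 to 0.0276 for EPAS1, from -0.19 to 0.0695 for EGLN3, from -0.38 to 0.16 for CA9 and from -0.015 to 0.16 for ADM. CA9 also changed sign under quantile normalization (0.00496), and PKM was 0 there because it had the same rank in every library. The log2 difference of SLC2A3 to SLC2A1 ran from -0.0756 to 0.13. The means of CA9, EGLN3, CA12 and ANKRD37 were under 200 normalized reads. The part of depth in the spread of these genes was not tested.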

Other observations

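The 2 hexokinase genes that fell are neighbors. In the hg19 positions of the table, HKDC1 ends 2441 bases before HK1 starts on chromosome 10. Among the tested loci with a symbol around them, chosen after the values were seen, SUPV3L1 and VPS26A on the side of HKDC1 had log2 fold changes of -0.09 and 0.16, and neither passed the test (adjusted p = 0.478 and 0.300, limma). On the other side TACR2, at 36.2 and 27.6 normalized reads in si-CTRL and si-SAM68 cells, had a log2 fold change of -0.37 (adjusted p = 0.477, limma), and TSPAN15 rose (0.45, adjusted p = 0.0159, limma). Whether reads of one hexokinase gene were counted on the other was not tested.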
